A study of Mus musculus with 6 samples.

Results

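Integrins are cell surface receptors made of 1 alpha and 1 beta chain, and laminins are basement membrane proteins made of 1 alpha, 1 beta and 1 gamma chain. The genes described here are the mouse integrin alpha and beta chain genes and the laminin chain genes, chosen by name: every probe, other than control probes, whose gene name is that of an integrin chain or a laminin chain. The rule found 94 probes for 37 genes, out of 56605 probes and 26283 gene names on the array. They fall into 8 leukocyte integrin genes (20 probes), 18 matrix-binding integrin genes (44 probes) and 11 laminin chain genes (30 probes). Itga4, whose product pairs with beta chains of both kinds and binds both cell surface and matrix ligands, was counted with the leukocyte genes.

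Stromal cells of mouse bone marrow (BMSCs) were compared between 3 wild-type (WT) samples and 3 NONMMUT002667-KO samples, called KO here, which lack the RNA of that name. All 6 are labelled male. Neither strain nor age is given in the labels. Femur cells freed with collagenase were sorted for the stromal antigens Sca-1 and CD29 and against the blood cell antigens CD45 and CD11b, then grown to the first passage, so the RNA is that of the cultures after the sort. Each sample was hybridised in 1 colour (Cy3) to 1 array. The labels also carry description and extraction texts about irradiated human blood, which were not followed, since the titles, source names and organism field all name mouse stromal cells. Whether each sample was 1 mouse or a pool is not stated, so the p-values reflect only how far these 6 samples spread, which may be technical.

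Values are log2 signals relative to the 75th percentile of the same array, so a difference of 1 is a 2-fold change. A probe was tested if it was well above background, by the scanner software's own flag, on all 3 arrays of at least 1 group. For each gene, the tested probe that was brightest on average over the 6 arrays stands for it. Between 49.0% and 56.7% of the spots for transcripts were well above background on each array. Xist, expressed from the inactive X chromosome of females, was detected in WT replicate 3 and in KO replicate 1, against their label, so the main results are also given without both. All 6 arrays lay on 1 slide and shared 1 scan, with the WT samples in its first row of arrays and the KO samples in the other row, so row and genotype cannot be told apart. The knocked-out RNA was not checked, because none of the files names it.

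Integrins of stromal cells anchor them to collagen, fibronectin, vitronectin and laminin and pass force and signals to the actin cytoskeleton through talin, kindlin and focal adhesion kinase. Collagen is bound by the alpha chains 1, 2, 10 and 11 together with the beta chain Itgb1, laminin mainly by the alpha chains 3, 6 and 7, and the RGD sequence of fibronectin and vitronectin by alpha 5, alpha 8 and alpha V chains. The leukocyte integrins with the beta chain Itgb2 bind ICAM molecules and complement fragments and are restricted to blood cells, so in marrow cultures they mark cells other than stroma.

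The sequences that follow belong to the genes whose values stand out in the comparison and to the sort marker Itgam. Promoter windows are the 250 bases before the transcription start in the RefSeq table (GRCm38.p6), written 5′ to 3′ on the gene's own strand. The table held 26 windows for 23 of the 37 genes. Capitals mark each match, on either strand, to 1 of 3 motifs: GAGGAA, a core letter sequence of sites for the myeloid factor PU.1, TGTGGT, the core of sites for Runx factors, and GGGCGG, the GC box of Sp1-type factors. The matches in the windows shown do not overlap.
Itga10 promoter, chr3:96645334-96645583, plus strand: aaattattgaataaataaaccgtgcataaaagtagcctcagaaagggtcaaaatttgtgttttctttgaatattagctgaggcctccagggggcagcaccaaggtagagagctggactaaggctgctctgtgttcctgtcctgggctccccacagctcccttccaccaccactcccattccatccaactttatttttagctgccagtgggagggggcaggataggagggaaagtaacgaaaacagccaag
Lamb3 promoter, chr1:193301744-193301993, plus strand: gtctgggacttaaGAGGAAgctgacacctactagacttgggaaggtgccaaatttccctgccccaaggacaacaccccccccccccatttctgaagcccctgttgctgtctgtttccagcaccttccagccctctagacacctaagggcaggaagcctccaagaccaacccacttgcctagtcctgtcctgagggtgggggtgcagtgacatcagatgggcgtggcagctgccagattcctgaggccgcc
Itgam promoter, chr7:128062390-128062639, plus strand: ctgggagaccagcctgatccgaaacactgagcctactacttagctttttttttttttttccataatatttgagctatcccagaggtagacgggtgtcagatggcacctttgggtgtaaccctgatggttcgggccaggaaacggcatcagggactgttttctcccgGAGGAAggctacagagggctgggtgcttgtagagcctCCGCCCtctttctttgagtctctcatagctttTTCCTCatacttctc

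Of all 32851 promoter windows in the table, 23.3% held GAGGAA, 14.0% held TGTGGT and 32.7% held GGGCGG on either strand. Among the 26 windows of integrin and laminin genes, 13 held GAGGAA, 2 held TGTGGT and 9 held GGGCGG. A match describes these letters and is not a measured binding site.

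Of the array's own oligonucleotides, 3 are shown because they are further probes of the genes Itga10, Lamb3 and Itga6, to be set beside the representative ones. Their place in the transcripts was not annotated here. Each is 60 bases long. Each has at least 1 reading frame without a stop codon. In another frame the Itga10 probe closes on a stop codon, shown in capitals.
Itga10 probe, chr3:96466894-96466953, mm9: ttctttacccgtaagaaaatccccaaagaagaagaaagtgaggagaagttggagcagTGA
Lamb3 probe, chr1:195167088-195169619, mm9, across an intron: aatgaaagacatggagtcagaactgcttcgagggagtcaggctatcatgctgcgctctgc
Itga6 probe, chr2:71683882-71684032, mm9, across an intron: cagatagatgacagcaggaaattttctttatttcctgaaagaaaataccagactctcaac

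Of the 37 genes, 30 had a tested probe (53 of the 94 probes): 7 of the leukocyte integrins, 14 of the matrix-binding integrins and 9 of the laminin chains. No member passed the threshold of 0.05 on limma's adjusted p, adjusted over all 28606 probes tested, where 0.0594% of all probes and 0.0796% of all 15072 genes passed. The lowest adjusted p of a member that was well above background in both groups was that of Itga10 (0.073), lower in KO. Lamb3 (0.0723) was well above background on the WT arrays only and was tested because of them. The filter thus favoured a lower value in KO, and nothing is read from its p. At an unadjusted limma p under 0.05, 4 members were lower in KO (Itga10, Lamb3, Lamb2 and Itga7; 13.3% of 30, against 8.10% of all genes) and 1 was higher (Itga6; 3.33%, against 6.78% of all genes). By probe, 4 of the 53 were lower (against 7.28% of all probes) and 4 higher (against 8.24%). The 3 KO values lay wholly below the 3 WT values for 6 members (20.0%, against 10.5% of all genes) and wholly above them for 1 (3.33%, against 11.9%). Over the 29 members well above background in both groups, that is without Lamb3, 3 were lower at that p (10.3%) and 5 lay wholly below (17.2%). The shares of all genes above are not restricted in this way. A refit on probes well above background on all 6 arrays had 4 of 29 members and 1066 of 14058 genes lower at that p. For values wholly below, no restricted share of all genes was computed. The median difference over the 30 members was 0.01, beside 0.02 over all genes tested, and with Lamb3 at its bound the median was also 0.01. By fold, 26 of the 30 differed by less than 1.5-fold, Itga10, Itga7 and Itgax differed by more, and Lamb3 has only a bound.

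**Figure D1:**
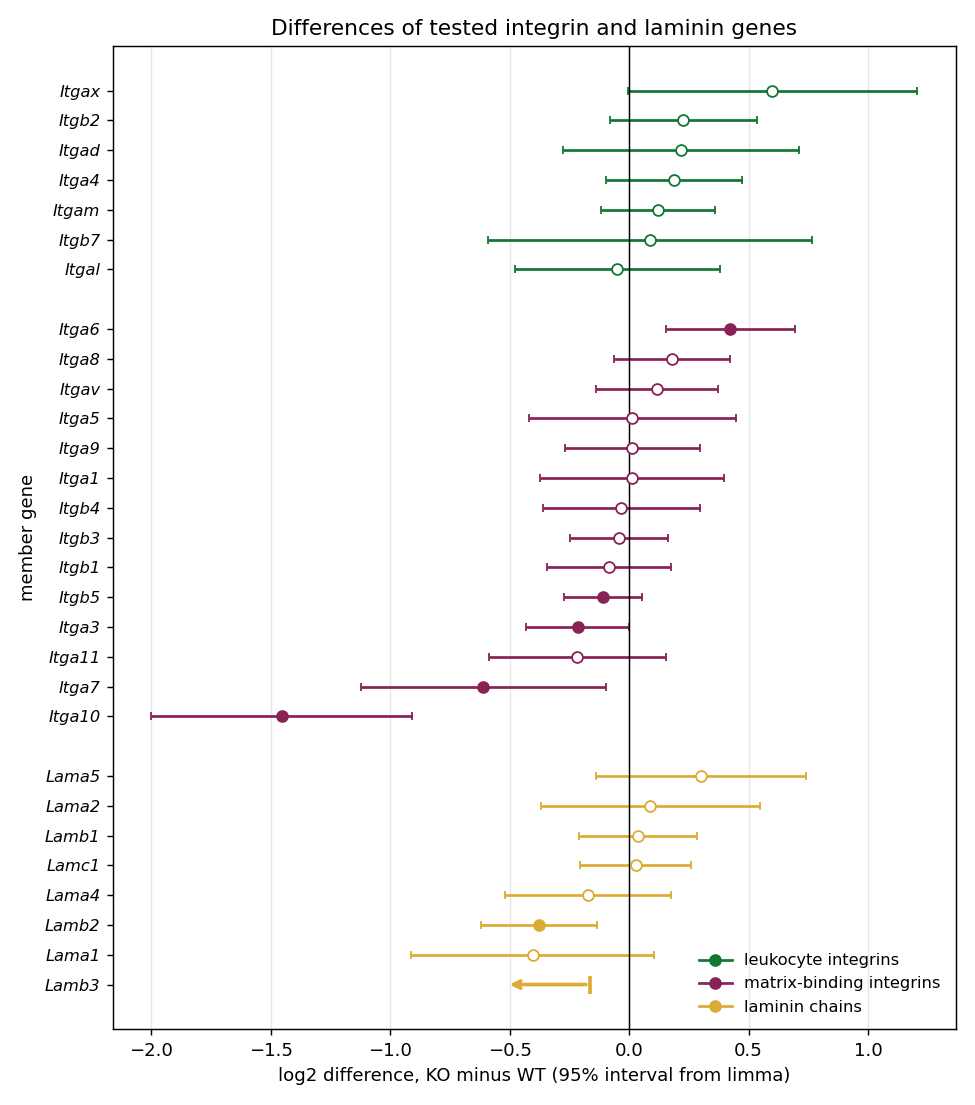
Log2 difference, KO minus WT, of 29 of the 30 tested genes by their representative probes, with the 95% interval from limma as bars and colours for the 3 classes; the arrow for Lamb3 starts at its bound (at least 1.12-fold lower), since its KO arrays were not well above background. Filled points mark genes whose 3 KO values lie wholly on 1 side of the 3 WT values; among the points, Itga10 (-1.45) lies farthest to the left and Itgax (0.60) farthest to the right.

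The collagen receptors differed most through Itga10, the alpha chain best known as the collagen receptor of chondrocytes. Itga10 had 2.49, 2.68 and 2.49 on the WT arrays and 1.51, 0.58 and 1.21 on the KO arrays. The KO values all lay well below the WT values, and the KO arrays were more spread than the WT arrays (SD 0.48 and 0.11, n = 3 each). The level was 2.74-fold lower in KO (log2 difference -1.45, SE 0.23; limma adjusted p = 0.073; representative probe on chromosome 3, 96468377 to 96468436, mm9). The call turned on the processing: with normexp background correction and quantile normalization the difference was -1.40 (limma adjusted p = 0.0461), with a variance trend it was -1.45 (limma adjusted p = 0.0457), and leaving out both arrays with Xist signal it was -1.69 (limma adjusted p = 0.132). The other Itga10 probe, the one printed above that ends on the stop codon, had -3.75, -0.87 and -4.03 in WT and -3.70, -3.70 and -3.35 in KO. It showed no such split: 1 WT array stood far above the other 5, and the groups overlapped (log2 difference -0.70, SE 0.79; limma adjusted p = 0.733).

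The other collagen receptor chains measured did not follow Itga10. Itga11, whose product binds fibrillar collagen on mesenchymal cells, had 4.85, 5.10 and 5.13 in WT and 4.62, 4.69 and 5.12 in KO (log2 difference -0.22, 95% interval -0.59 to 0.15; limma adjusted p = 0.564). Itga1, of the collagen receptor that prefers basement membrane collagen, had a difference of 0.01 (95% interval -0.37 to 0.40) by its representative probe. A further Itga1 probe gave 0.33 (SE 0.10; limma adjusted p = 0.206), with its KO values wholly above the WT values. Itga2 did not clear background on any of the arrays.

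Among laminin receptors, Itga6 and Itga7 had differences of opposite sign. Itga6, the alpha chain of laminin receptors with Itgb1 or Itgb4, had 4.61, 4.52 and 4.69 in WT and 4.84, 5.04 and 5.21 in KO. All 3 KO values were above all 3 WT values, with a 1.34-fold higher mean (log2 difference 0.42, SE 0.11; limma adjusted p = 0.164) at chromosome 2, 71694756 to 71694815, mm9. Without the 2 arrays with Xist signal the difference was 0.56 (limma adjusted p = 0.22).

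Itga6 had 5 tested probes, and they did not share 1 sign. From the lowest to the highest position on chromosome 2, the probe printed above gave 0.29 (SE 0.12), the probe from 71690633 to 71690692 gave -0.11 (SE 0.10), the probe from 71692909 gave 0.45 (SE 0.17), the representative probe gave 0.42 and the probe from 71696151 gave 0.32 (SE 0.18). The probe with the negative difference is assigned to a separate Ensembl transcript, ENSMUST00000139760. The probe with 0.45 is also assigned to a separate Ensembl transcript, so this does not set the negative probe apart. The negative probe read 2.39, 2.49 and 2.73 in WT and 2.43, 2.41 and 2.46 in KO, so its groups overlapped.

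Itga7, the alpha chain of the main laminin receptor of skeletal muscle, had -0.19, -0.42 and -0.22 in WT and -0.46, -1.34 and -0.86 in KO. The KO values were all below the WT values, though KO replicate 1 lay only just below WT replicate 2. The mean was 1.53-fold lower in KO (log2 difference -0.61, SE 0.22; limma adjusted p = 0.257). The size rested in part on KO replicate 2, without which the difference was -0.38. The unadjusted p was no longer under 0.05 without WT replicate 1 (-0.57), WT replicate 3 (-0.58) or KO replicate 3 (-0.62), with these differences. Leaving out both arrays with Xist signal, it was -0.80 (limma adjusted p = 0.265). Itga3, the laminin receptor chain typical of epithelium, had -1.70, -1.61 and -1.88 in WT and -1.97, -1.93 and -1.94 in KO. Its groups did not overlap, and the difference was small (log2 difference -0.21, SE 0.09; limma adjusted p = 0.324). Itgb4, the beta chain that pairs with alpha 6 in epithelial hemidesmosomes, had a difference of -0.03 (95% interval -0.36 to 0.30).

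Itgb1, the beta chain shared by most matrix receptors and the CD29 antigen of the sort, had 5.39, 5.51 and 5.58 in WT and 5.50, 5.22 and 5.50 in KO. The groups overlapped (log2 difference -0.085, 95% interval -0.34 to 0.17; limma adjusted p = 0.766). A further Itgb1 probe read 3.11, 3.06 and 3.21 in WT and 3.04, 2.85 and 2.94 in KO, with all KO values below the WT values and a difference of -0.18 (SE 0.09; limma adjusted p = 0.381).

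The receptors for RGD and related sequences differed little. Itgb3, the beta chain of the vitronectin receptor of osteoclasts and of the platelet fibrinogen receptor, had 0.72, 0.58 and 0.83 in WT and 0.69, 0.68 and 0.64 in KO. The KO values lay within the WT range (log2 difference -0.04, 95% interval -0.25 to 0.16). Itgb5, which pairs with alpha V, had 5.41, 5.33 and 5.35 in WT and 5.23, 5.28 and 5.25 in KO. Its KO values were all lower, by a mean of 0.11 on the log2 scale (SE 0.07; limma adjusted p = 0.511). Itga8, a receptor chain for nephronectin, had -2.01, -2.22 and -2.33 in WT and -1.95, -2.05 and -2.02 in KO, which overlapped (log2 difference 0.18, SE 0.10; limma adjusted p = 0.454). Itga5, of the classical fibronectin receptor, Itga9, of a receptor for tenascin-C, and Itgav had differences of 0.01, 0.01 and 0.12, with limma adjusted p from 0.66 to 0.98.

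Itgav, the alpha chain of the vitronectin receptors, had 3 tested probes with differences of 0.12, 0.76 and 0.10. The probe with 0.76 (SE 0.29; limma adjusted p = 0.282) read -2.44, -2.40 and -1.82 in WT and -0.88, -1.85 and -1.67 in KO. Its groups overlapped. It is assigned to the transcript ENSMUST00000148256, and the probe with 0.10 to a further Ensembl transcript. Over the 14 matrix-binding integrins, 8 differences were negative and 6 positive, with a median of -0.04, where 44.4% of all genes were negative. Centring the arrays on their medians instead gave 11 negative and 3 positive. That centring moved the median over all genes from 0.02 to -0.008. The genes that changed sign were Itga1, Itga5 and Itga9, with 0.01 each in the main fit. The share of all genes was not computed for it. Of the marker lists for cells that attach to matrix, stromal markers (7 of 7 tested) had a median difference of -0.16, with mean levels of 1.89 to 2.02 on the WT arrays and 1.57 to 1.96 on the KO arrays. The list was split, with 4 negative and 3 positive differences. They ran from Col1a1 (-0.90, and -0.21 and -0.14 by its further probes) to Cxcl12 (0.37, and 0.28 by its other probe). At an unadjusted limma p under 0.05, 1 was lower (against 8.10% of all genes) and 1 higher (against 6.78%). Osteoclast markers (3 of 4 tested) had a median of -0.02, with Ctsk at -0.40, lower at an unadjusted p under 0.05, Acp5 at -0.02 and Oscar at 0.23. Endothelial markers (3 of 5) had a median of -0.02 and smooth muscle and pericyte markers (3 of 4) 0.06. In the last list Cspg4 had -1.56, and -1.58 by its other probe. Tagln had 0.10, and Acta2 had 0.06, with 0.08 and 0.24 by its further probes. Col1a1 and Cxcl12 are named because they are the ends of the stromal list. What part such cells have in the integrin values was not tested.

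**Figure D2:**
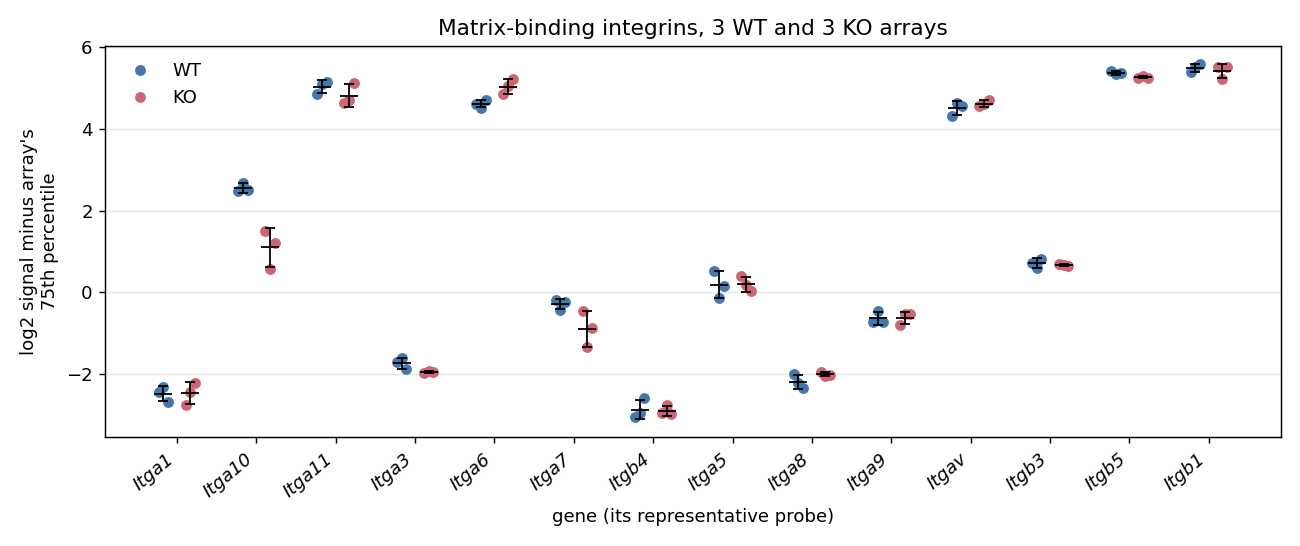
Log2 signal relative to each array's 75th percentile for the 14 tested matrix-binding integrin genes, 1 probe each, on 3 WT (blue) and 3 KO (red) arrays, with mean and SD as black bars. Itga10 is the gene whose groups stand farthest apart; heights of different probes cannot be compared with each other.

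Leukocyte integrins were well above background on all 6 arrays for 7 of the 8 genes, although the sort had removed cells with CD11b, the product of Itgam. Itgam had 3.96, 3.92 and 4.17 in WT and 4.14, 4.23 and 4.04 in KO. The groups overlapped (log2 difference 0.12, 95% interval -0.12 to 0.36; limma adjusted p = 0.615) at chromosome 7, 135261755 to 135261814, mm9. The other Itgam probe differed in sign (-0.25, SE 0.21; limma adjusted p = 0.624). Itgam shares its neighbourhood on chromosome 7 with Itgax and Itgad, which encode the alpha chains of related myeloid receptors.

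Itgax, which encodes CD11c of dendritic cells and macrophages, had 3.34, 3.08 and 3.90 in WT and 4.35, 4.12 and 3.66 in KO. WT replicate 3 lay above KO replicate 3, and the other 2 KO values were above all WT values. The mean was 1.52-fold higher in KO, which did not pass (log2 difference 0.60, SE 0.25; limma adjusted p = 0.326). The other tested Itgax probe gave 0.45 (SE 0.20; limma adjusted p = 0.335). Without the 2 arrays with Xist signal the difference was 0.68 (limma adjusted p = 0.309).

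Itgb2, the beta chain of these receptors, had 3.54, 3.34 and 3.59 in WT and 3.87, 3.81 and 3.48 in KO. As for Itgax, KO replicates 1 and 2 were above all WT arrays and KO replicate 3 was not (log2 difference 0.23, SE 0.13; limma adjusted p = 0.459). Itga4, of the receptors for VCAM-1 and fibronectin, had 1.89, 2.11 and 1.99 in WT and 2.01, 2.39 and 2.15 in KO (log2 difference 0.19, SE 0.12; limma adjusted p = 0.515). Itgad had 0.27, 0.22 and -0.34 in WT and 0.22, 0.57 and 0.02 in KO, with overlapping groups (log2 difference 0.22, SE 0.21; limma adjusted p = 0.674).

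The integrins best known from lymphocytes showed the same overlap. Itgal, the alpha chain of LFA-1, had -0.0045, 0.10 and 0.58 in WT and 0.41, 0.09 and 0.03 in KO (log2 difference -0.05, 95% interval -0.48 to 0.38). Itgb7, a beta chain of gut-homing receptors, had 0.22, -0.68 and 0.40 in WT and 0.15, -0.18 and 0.23 in KO (log2 difference 0.09, 95% interval -0.59 to 0.77). Itgae, which pairs with Itgb7, did not clear background on any of the arrays.

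Over the 7 leukocyte integrins, 6 differences were positive, with a median of 0.19, and none had an unadjusted limma p under 0.05. Of all genes, 8.10% were lower and 6.78% higher at that p. The groups of these 7 genes overlapped in every case. Of the markers of macrophages and monocytes, all 12 were well above background on the 6 arrays, and 11 had a positive difference, with a median of 0.14, where 44.4% of all genes were negative. None passed limma's adjusted threshold, and 1 (Cd14, 0.32) was higher at an unadjusted p under 0.05. Other probes of Csf1r (-0.305), Lyz2 (-0.16) and Adgre1 (-0.08) had the opposite sign. Those of Cx3cr1 (0.45), Cd14 (0.29) and Cd68 (0.20 and 0.16) were positive as well. The mean level of the 12 markers was between 5.13 and 5.23 on the WT arrays and between 5.28 and 5.39 on the KO arrays. Among sort markers, Ptprc (CD45) had 0.20, and 0.25, 0.52, 0.50 and 0.33 by its further probes (limma adjusted p from 0.138 to 0.519). Ly6a (Sca-1) had -0.09 (limma adjusted p = 0.911). Of other blood cell lists, 1 of 5 lymphocyte markers (Cd3e) and 1 of 4 platelet markers (Pf4) were tested, with differences of -0.035 and 0.26, and 5 of 6 neutrophil markers, with a median of 0.09. The part of these cells in the integrin values was not tested. In such cultures, fewer cells of a type and less RNA per cell cannot be told apart.

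**Figure D3:**
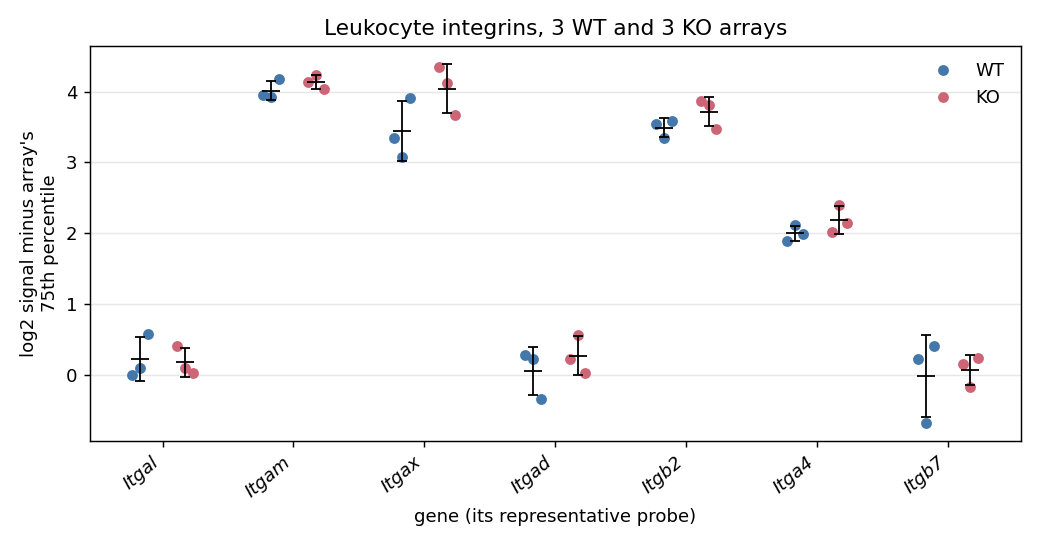
Log2 signal relative to each array's 75th percentile for the 7 tested leukocyte integrin genes on 3 WT (blue) and 3 KO (red) arrays, with mean and SD as black bars. The WT and KO points overlap for every gene, with Itgax showing the widest step (0.60).

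Among laminin chains, the beta chain Lamb2 had KO values wholly below its WT values, as had 10.5% of all genes. For the beta chain Lamb3 only a bound can be given. Lamb3, a chain of the epithelial laminin of hemidesmosomes, read -3.73, -4.00 and -3.51 in WT and -5.11, -5.49 and -4.74 in KO. It was well above background on all WT arrays and on no KO array, so it was tested because of its WT values, and it was at least 1.12-fold lower in KO. No exact difference is given for this probe, on chromosome 1, 195170009 to 195170068 (mm9), because the KO readings are background. For the signals as measured, limma's adjusted p was 0.0723, with 0.0461 after normexp background correction and quantile normalization and 0.227 leaving out both arrays with Xist signal. Nothing is read from these p-values, since the probe was let in by its WT signal alone. The Lamb3 probe printed above read -5.47, -5.77 and -4.88 in WT and -6.26, -6.17 and -5.76 in KO. It did not clear background on any of the arrays, so these readings carry no order.

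Lamb2, the beta chain of laminins at nerve-muscle junctions, in the kidney filter and in vessel walls, had 1.16, 1.13 and 1.19 in WT and 0.81, 0.60 and 0.94 in KO. All KO values were below the narrow WT range (SD 0.03 in WT and 0.17 in KO). The mean was 1.30-fold lower in KO (log2 difference -0.38, SE 0.10; limma adjusted p = 0.164) at chromosome 9, 108392189 to 108392248, mm9. Leaving out both arrays with Xist signal, the difference was still -0.38 on the log2 scale, but the unadjusted p was no longer under 0.05 (limma adjusted p = 0.422). Lamb2 had 1 probe on the array.

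The chains that make up the common laminins of mesenchyme and vessels differed little. Lamb1, the widespread beta chain, and Lamc1, the gamma chain of most laminins, had differences of 0.04 (95% interval -0.21 to 0.28) and 0.03 (95% interval -0.20 to 0.26). Their further tested probes gave -0.002 and 0.25 for Lamb1, which differ in sign, and 0.05 each for Lamc1. Lama4, the alpha chain of vascular and marrow stromal laminins, had 0.94, 1.00 and 0.56 in WT and 0.49, 0.68 and 0.81 in KO. The groups overlapped (log2 difference -0.17, 95% interval -0.52 to 0.17; limma adjusted p = 0.627), and its other tested probe gave -0.20.

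Lama1, the alpha chain of embryonic laminin, had -0.87, -0.27 and -0.54 in WT and -1.23, -1.07 and -0.59 in KO, with overlap at KO replicate 3 (log2 difference -0.40, SE 0.21; limma adjusted p = 0.43). Lama5, the alpha chain that succeeds it in most adult basement membranes, had -0.40, -0.69 and -0.96 in WT and -0.60, -0.09 and -0.45 in KO (log2 difference 0.30, SE 0.18; limma adjusted p = 0.494). Lama2, the alpha chain around muscle fibres, had -2.07, -2.61 and -2.03 in WT and -1.88, -2.26 and -2.31 in KO (log2 difference 0.09, SE 0.19). The WT and KO values of these alpha chains overlapped in every case. Over the 9 laminin chains, 4 differences were negative and 5 positive, with a median of 0.03, where 44.4% of all genes were negative.

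**Figure D4:**
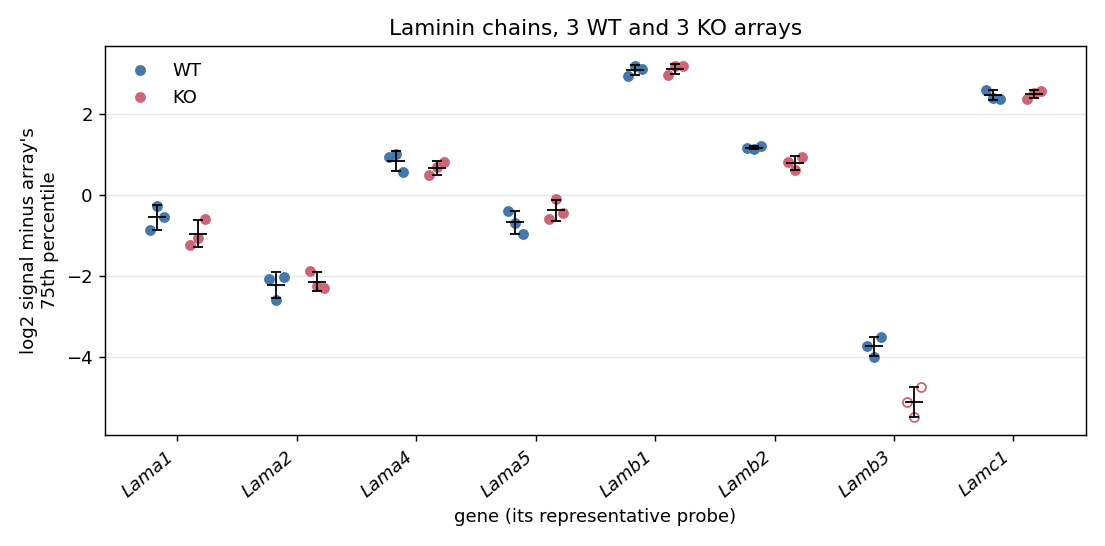
Log2 signal relative to each array's 75th percentile for 8 of the 9 tested laminin chain genes on 3 WT (blue) and 3 KO (red) arrays, with mean and SD as black bars. Open circles mark Lamb3 on the KO arrays, where it was not well above background. Of the chains well above background in both groups, Lamb2 is the one whose KO points lie wholly below the WT points.

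The remaining 7 genes had no tested probe. Itga2, Itgae, Itgb6, Itgb8, Lama3 and Lamc3 did not clear background on any of the arrays with any of their probes. Itga2b, the platelet integrin chain, was well above background on 1 array only, that of WT replicate 3 (-3.38). Lama3, which encodes the alpha chain of the same epithelial laminin as Lamb3, was thus read at background in both groups, as was Itgb6, the epithelial partner of alpha V.

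Probes of 1 gene could be set against each other for 16 members. Their differences spanned a median of 0.13 on the log2 scale, and they took both signs for 3 genes, Itga6, Itgam and Lamb1. The widest spans were those of Itga10 (0.76), Itgav (0.66) and Itga6 (0.55). Within groups, the SD of the representative probes ran from 0.03 to 0.58 in WT and from 0.02 to 0.48 in KO, with medians of 0.16 and 0.19.

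**Figure D5:**
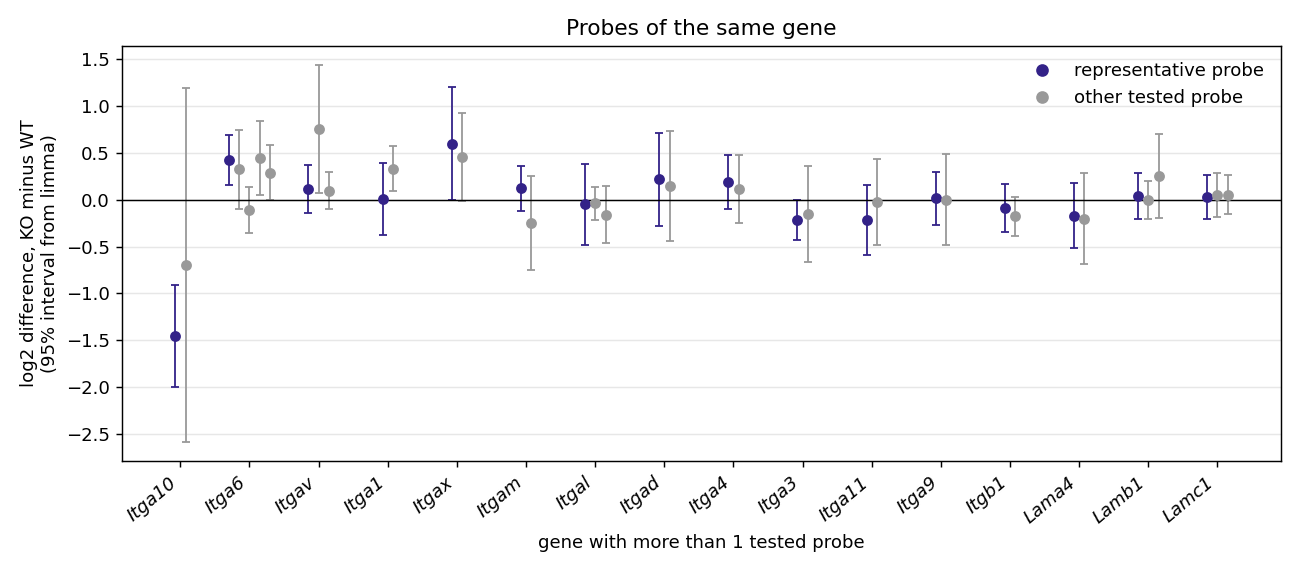
Log2 difference, KO minus WT, of every tested probe of the 16 genes with more than 1, ordered within a gene from the highest to the lowest mean signal, with the 95% interval from limma as bars. The probes of Itga10 differ in size (-1.45 and -0.70), 1 of 5 Itga6 probes falls below 0, and 1 Itgav probe (0.76) lies above its neighbours.

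The proteins that link integrins to actin were measured for 25 of 26 listed genes, and 0 passed limma's adjusted threshold. At an unadjusted p under 0.05, 1 of the 25 was lower (against 8.10% of all genes) and none higher (against 6.78%). Differences were positive for 19 of the 25 and negative for 6, where 44.4% of all genes were negative. Their median was 0.11, beside 0.02 over all genes tested. Tns2, a tensin that binds beta chain tails, had -1.58 in WT (SD 0.08, n = 3) and -2.04 in KO (SD 0.04, n = 3), and its groups did not overlap (log2 difference -0.45, SE 0.08; limma adjusted p = 0.0833). The next by p were Actn4, an actin cross-linker (0.16, SE 0.07), and Pxn, which encodes the adaptor paxillin (0.27, SE 0.14, and -0.13 by its other probe).

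Basement membrane partners of laminin were measured for 9 of 10 listed genes, with 6 negative differences (against 44.4% of all genes) and a median of -0.05. At an unadjusted limma p under 0.05, Nid1, the nidogen that ties laminin to collagen IV, was higher in KO (log2 difference 0.29, SE 0.09; adjusted p = 0.217), and Hspg2, which encodes perlecan, was lower (-0.34, SE 0.12; adjusted p = 0.268; -0.42 by its other probe). Agrn, which encodes agrin, had -0.24 (SE 0.16; adjusted p = 0.541). At that unadjusted p, 1 of the 9 was higher (against 6.78% of all genes) and 1 lower (against 8.10%). None passed the adjusted threshold.

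Ligands of leukocyte integrins were measured for 4 of 7 listed genes. Icam2, a ligand of LFA-1, had 1.28, 1.22 and 1.17 in WT and 1.69, 1.62 and 1.63 in KO, with all KO values above all WT values (log2 difference 0.42, SE 0.07; limma adjusted p = 0.0833). Jam3, a junction protein bound by Itgam-containing receptors, had -0.26 (SE 0.10; limma adjusted p = 0.275), and Vcam1, the ligand of Itga4-containing receptors, -0.17 (SE 0.25; adjusted p = 0.803). Among matrix ligands, 9 of 10 were measured, and 1 passed: Ibsp, the RGD protein bone sialoprotein, fell by 1.73 on the log2 scale (SE 0.16; limma adjusted p = 0.0496), from 5.13, 5.57 and 5.23 in WT to 3.70, 3.31 and 3.72 in KO. That call was lost with the replicate block, with a sex term, with dim probes kept and without WT replicate 2, settings in which 0 of all genes passed. Col1a1 and Col1a2, the chains of type I collagen, had differences of -0.90 and -0.50 by their representative probes (limma adjusted p = 0.141 and 0.241), with Col1a1 at -0.21 and -0.14 and Col1a2 at -0.71 and -0.65 by their further probes. At an unadjusted p under 0.05, 3 of the 9 were lower (against 8.10% of all genes) and 1 higher (against 6.78%).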

How the data were processed

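The intensity values are the scanner software's processed signal, mean signal and background of each spot, per the file headers, which name Agilent Feature Extraction 10.7.1.1; the submitters' processing notes name version 9.1. The authors' deposited series table holds log2 values whose median was 6.16 in every column. It was used as an alternative. Its columns followed the scanner values of the same arrays closely, with the lowest correlation, 0.999935, on WT replicate 2. The members, gene lists and classes were chosen with earlier results of these data known.

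Log2 processed signals were centred on each array's 75th percentile over non-control spots. Spots marked as outliers were left out and spots of a probe averaged. Differences were fitted with limma 3.58.1 in R 4.3.3 (lmFit and eBayes) with genotype alone in the model and two-sided tests, on 28606 probes, with Benjamini-Hochberg adjustment over all of them. Probes not well above background in a group are given as a bound against the lowest signal well above background on each array. Gene names are those of the files, updated by RefSeq accession. The fit was tested on simulated data, but no outcome is given here and no result rests on it. Values of every sample are given for Itgb1, Itgam, Itgb3, Lama4 and, per class, up to 6 further members with the smallest p. For each list of partners or ligands, up to 3 genes with the smallest p are named with their differences. Promoter sequences come from RefSeq's table. The number of arrays, 3 per group, limits the precision. Of the laminin chains, 1 is included in the counts and medians, but its own values are not reported here.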

Additional observations from a re-analysis of the deposited data

How the results depend on the processing

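Differences of Itga10, Itga7, Itga6, Lamb2 and Itgax kept their sign in all 16 alternatives. So did those of other members, among them Itga11, Itga8, Itgb5, Itgav, Lama4 and Lama5. Alternatives that changed only the filter, the variance trend, the block or the sex term returned the main difference of these genes. Those settings could not change a sign. The count of members past the adjusted limma threshold was 2 with normexp and quantile normalization (Itga10 and Lamb3; 141 of all genes) and 1 with a variance trend (Itga10; 124 of all genes). It was 0 in the other alternatives. Lamb3 was tested because of its WT values, so nothing is read from its passing. Of all genes, 62 passed with median centring, 45 with a gene's probes averaged, 12 with the deposited log2 values, 6 when a probe had to clear background on each of the 6 arrays, 11 without both arrays with Xist signal, 0 with dim probes kept or a sex term, and 0 to 15 when 1 array was left out. Members higher in KO at an unadjusted p under 0.05 numbered 2 with median centring, normexp and quantile normalization, a variance trend or a sex term. They also numbered 2 with only probes well above background on all 6 arrays, or without the 2 arrays with Xist signal. In these settings 661 to 1237 of 14058 to 15178 genes were higher. With dim probes kept, 3 of 37 members and 6254 of 26283 genes were higher. With a gene's probes averaged, 3 members and 1215 of 15072 genes were higher. When 1 array was left out, 1 to 3 members and 696 to 974 of all genes were higher. Members lower in KO at that p were 3 to 5 over the alternatives, where 992 to 1401 of 14058 to 26283 genes were lower. Class medians moved by less than the spread between replicates under every alternative, including Itga4 counted as matrix-binding (leukocyte median 0.17).

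Same-numbered WT and KO arrays shared a column of the slide (1, 3 and 4). Their deviations correlated with 0.056, 0.154 and -0.032. The best partner had the same number for replicates 1 and 2 but not for replicate 3. Since these correlations were low, the numbers were not taken as pairs in the main fit. With the replicate block, 0 members and 0 of all genes passed, against 12 of all genes without it (members: 4 lower, 1 higher at an unadjusted p under 0.05) and the class medians were 0.188, -0.037 and 0.028. Genes near background, such as Lamb3, are limited by signal over background.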
